A study of Mus musculus with 10 samples.

Results

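The genes described here are 10 members of the Notch pathway measured in mouse aorta: the receptors Notch1, Notch2, Notch3 and Notch4, the ligands Jag1 and Dll4, and the target genes Hes1, Hey1, Hey2 and Heyl. They were taken by symbol from the deposited count tables, where they are 10 of 35667 genes, and all 10 had enough counts to be tested. RNA was sequenced from aortas of C57BL/6 mice aged 12 weeks. The group labelled KO holds 5 libraries whose titles name a knockout of Ovgp1, which encodes the secreted oviductal glycoprotein 1, and the group labelled WT holds 5 wild-type libraries. The genotype field names Ovgp1 for KO 1 alone, and names Ovgp2 to Ovgp5 for KO 2 to KO 5. The labels give neither the deleted part of the gene, nor the method of deletion, nor the sex, and they do not say that libraries of a group are separate animals.

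Notch receptors sit on the cell surface and are activated by Jagged and Delta ligands on a neighbouring cell. Cleavage by an ADAM protease and then by gamma-secretase frees the intracellular domain, which joins the DNA-binding protein RBPJ in the nucleus and turns on repressors of the Hes and Hey families. In arteries, Dll4, Notch1 and Notch4 are known from endothelial cells, Jag1 from both endothelium and smooth muscle, and Notch3, Hey2 and Heyl chiefly from smooth muscle and pericytes.

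Libraries labelled KO held 24434745 to 26694590 counts, and WT libraries 21242030 to 24396394. The KO libraries were nearly identical to each other: between pairs of them the chi-square of counts per degree of freedom, close to 1 where counting error alone separates libraries, was 1.77 to 3.25, against 11.0 to 154 between pairs of WT libraries (10 pairs per group, 12509 genes). Ovgp1 itself averaged 19.4 ± 1.66 CPM under the KO label and 3.70 ± 1.10 CPM under the WT label (SD, n = 5 each), which goes against a knockout, and every direction below is that of the labelled groups. CPM are counts scaled to library size with TMM factors. Mitochondrial genes took 7.61% to 7.88% of counts in KO libraries, and 6.75% to 16.2% in WT libraries, where WT 1 (16.2%) and WT 3 (13.2%) were highest. The Notch genes and the count of other pathway genes called are therefore given from 2 fits. One compares 5 KO with 5 WT libraries. The other sums the KO counts into 1 sample, so that the spread comes from the WT libraries alone. Marker lists and single pathway genes are given from the first fit only. P-values of the first fit rest in part on the spread among KO libraries, which may be technical.

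Per length, the aortic Notch transcripts were led by target genes and by Notch2. In CPM per kilobase of annotated exon, Heyl averaged 43.0 in KO and 37.1 in WT libraries. Hey2 averaged 17.9 in KO and 17.0 in WT, and Notch2 averaged 14.5 in KO and 13.6 in WT. Heyl and Hey2 are transcriptional repressors, and Notch2 is a receptor found on smooth muscle among many cell types. Hes1 (8.53 in KO, 9.54 in WT) and Jag1 (8.31 in KO, 8.48 in WT) followed on the same scale. Notch3 (3.43 in KO, 2.43 in WT) and Hey1 (1.74 in KO, 1.92 in WT) came next. The lowest levels were those of Dll4 (0.48 in KO, 0.81 in WT), Notch1 (0.45 in KO, 0.55 in WT) and Notch4 (0.33 in KO, 0.50 in WT). The order of the 10 means was the same in both groups. Neighbours whose library ranges overlapped were Hes1 and Jag1, Dll4 and Notch1, and Notch1 and Notch4 in both groups, and Notch3 and Hey1 in WT alone.

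Among the 4 receptors, Notch2 made up 76.2% to 78.4% of the summed level per kilobase in KO libraries and 74.2% to 87.8% in WT libraries. Notch3 made up 17.6% to 19.95% in KO and 7.95% to 16.9% in WT, and its ranges did not overlap. Among the 4 targets, Heyl made up 59.8% to 61.2% in KO and 49.7% to 61.5% in WT. Of annotated exon bases, other genes overlapped 9.76% for Notch1, 6.03% for Notch3, 5.56% for Dll4, 5.02% for Notch2 and none for the other 6, so those reads cannot be assigned with certainty.

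**Figure D1:**
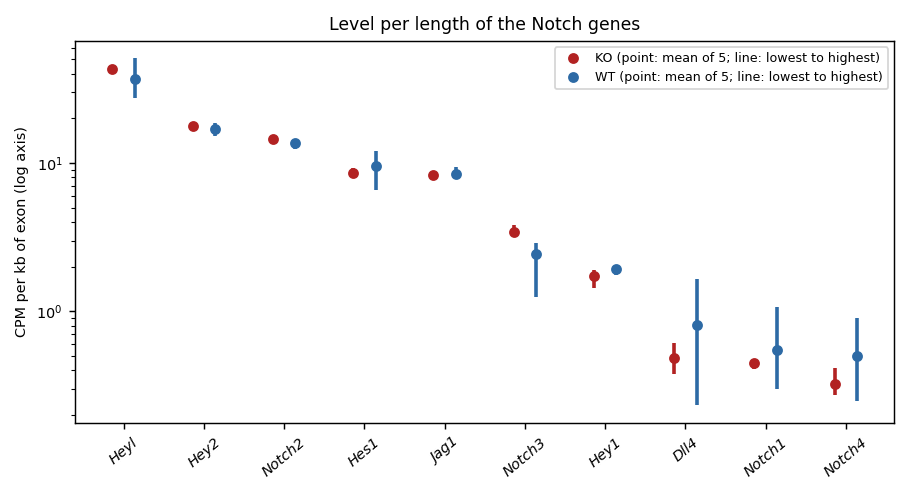
Level of the 10 Notch genes in CPM per kilobase of exon on a log axis, KO left of WT, with points for the mean of 5 libraries and lines from the lowest to the highest library. The order from Heyl at 43.0 (KO) and 37.1 (WT) down to Notch4 at 0.33 (KO) and 0.50 (WT) is the same in both groups, and the WT lines are long for Dll4, Notch1 and Notch4.

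Start regions of 4 members are shown because they hold letters bound by RBPJ (Hey2), by Hes-type repressors (Notch3, Dll4) or by endothelial ETS factors (Notch4). RefSeq promoter windows of 300 bases, 250 before and 50 after the annotated start (GRCm38.p6), were found for 7 of the 10 members. The letters GTGGGAA, bound by RBPJ, were searched on both strands and occurred in 1 of the 7 windows, that of Hey2, and in 6.38% of 32851 promoters of this length. They stand in capitals in the Hey2 window (chr10:30842734-30843033, minus strand), on the opposite strand at -207 to -201 and on the gene's own strand at -4 to 3, counted from the start with no position 0. The shorter core TGGGAA lies within both and occurs in 25.6% of promoters, among the members again in Hey2 alone.
Hey2: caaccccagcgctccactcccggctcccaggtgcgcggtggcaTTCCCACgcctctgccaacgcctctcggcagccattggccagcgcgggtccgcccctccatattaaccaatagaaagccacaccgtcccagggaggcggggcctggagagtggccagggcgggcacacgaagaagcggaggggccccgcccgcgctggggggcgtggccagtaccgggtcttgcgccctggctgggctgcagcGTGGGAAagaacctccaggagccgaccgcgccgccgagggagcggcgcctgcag
Letters that Hes-type repressors are known to bind (N-box, CACNAG) occurred in the windows of Notch1, Notch2, Notch3 and Dll4, and in 42.5% of promoters. Capitals mark them in the windows of Notch3 (chr17:32166841-32167140, minus strand) and Dll4 (chr2:119325534-119325833, plus strand).
Notch3: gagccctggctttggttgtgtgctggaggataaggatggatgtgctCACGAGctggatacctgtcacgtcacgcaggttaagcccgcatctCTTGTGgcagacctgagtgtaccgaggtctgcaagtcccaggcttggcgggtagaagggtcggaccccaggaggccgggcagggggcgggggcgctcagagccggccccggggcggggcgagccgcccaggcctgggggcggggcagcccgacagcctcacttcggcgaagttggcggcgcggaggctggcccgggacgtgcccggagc
Dll4: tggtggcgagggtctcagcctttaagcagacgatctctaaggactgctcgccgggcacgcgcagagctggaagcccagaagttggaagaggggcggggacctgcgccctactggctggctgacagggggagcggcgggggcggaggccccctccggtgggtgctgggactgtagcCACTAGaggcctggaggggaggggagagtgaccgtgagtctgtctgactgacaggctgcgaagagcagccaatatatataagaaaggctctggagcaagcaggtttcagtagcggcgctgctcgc
AGGAAG, a core of sites bound by ETS factors that act in endothelial cells, was found 4 times in the Notch4 window (chr17:34564045-34564344, plus strand), in capitals, in none of the other 6 windows and in 35.4% of promoters. CACGTG (7.15% of promoters), CCGGAAGT (3.89%), TATAAA (13.6%) and the CArG box (1.63%) were in none of the 7 windows.
Notch4: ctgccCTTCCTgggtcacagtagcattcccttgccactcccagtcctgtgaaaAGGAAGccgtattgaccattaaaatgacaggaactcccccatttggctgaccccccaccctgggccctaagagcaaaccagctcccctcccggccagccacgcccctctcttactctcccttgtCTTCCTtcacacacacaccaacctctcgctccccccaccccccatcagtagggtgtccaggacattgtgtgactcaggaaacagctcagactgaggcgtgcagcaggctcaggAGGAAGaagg
A match is a description of letters and does not show binding.

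In the comparison of the groups, none of the 10 Notch genes passed the test. With 5 KO against 5 WT libraries, 0 of 10 had an adjusted p below 0.05 (edgeR quasi-likelihood test, Benjamini-Hochberg adjustment over all 15710 tested genes), where 14.3% of all tested genes did, 6.84% higher and 7.43% lower in KO. Without adjustment 1 of 10, Notch3, had p below 0.05, against 29.5% of all tested genes. DESeq2 called Notch3 alone (18.9% of all tested genes), and limma-voom with sample weights called 6 of the 10 (41.2% of all tested genes). With the KO counts summed, edgeR called 0 of 10 (0.0446% of all genes), 0 of 10 had an unadjusted p below 0.05 (3.72% of all genes), and DESeq2 called 0. The median log2 difference, KO minus WT, was -0.09 over the 10 genes and -0.02 over all tested genes.

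The groups overlapped for 9 of the 10 genes. Notch3 was higher in every KO library than in every WT library, an order that 7.38% of all tested genes showed. All KO libraries lay below all WT libraries for none of the 10, against 7.22% of all genes, and for 14.6% of all genes the groups did not overlap in either direction. For 8 of 10 genes the KO mean lay inside the WT range, as for 71.3% of all genes; the exceptions were Notch3, above it, and Hey1, below it. Spread lay in the WT libraries: the median coefficient of variation over the 10 genes was 5.41% in KO and 22.8% in WT, against 5.65% in KO and 15.6% in WT over all tested genes.

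**Figure D2:**
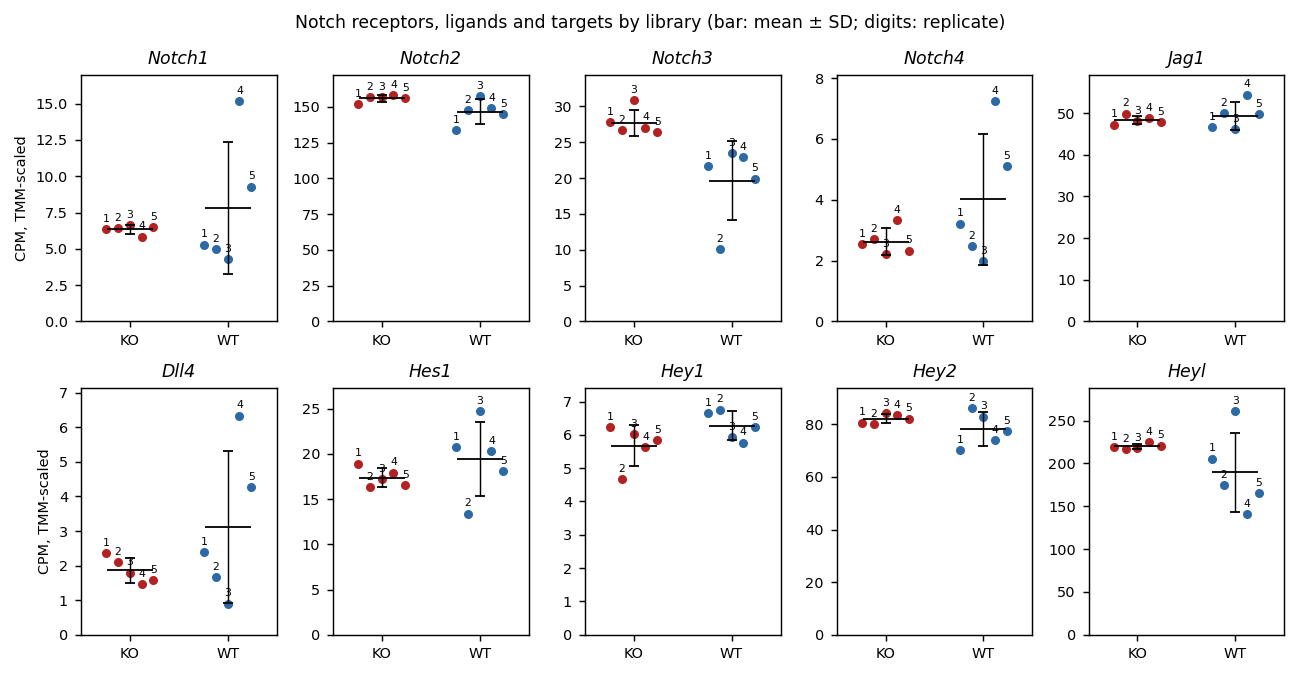
TMM-scaled CPM of each Notch gene in the 5 KO libraries (left, red) and 5 WT libraries (right, blue), numbered by replicate, with bars for the mean ± SD. KO points sit close together in most panels, WT 4 and WT 5 are high for Notch1, Notch4 and Dll4, and WT 2 is low for Notch3 at 10.05 CPM.

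Of the receptors, Notch3, known for its role in the maturation and upkeep of arterial smooth muscle, showed the clearest separation. It had 27.8, 26.7, 30.9, 27.1 and 26.4 CPM in KO 1 to KO 5, against 21.7, 10.05, 23.5, 23.0 and 19.9 CPM in WT 1 to WT 5. All KO values lay above all WT values, KO 3 was the highest library, and WT 2 lay far below the other WT libraries. The log2 difference was 0.50 ± 0.19 (SE; adjusted p = 0.0991, edgeR quasi-likelihood test, 5 against 5), and the fold was 1.415 with a 95% interval of 1.06 to 1.88. With the KO counts summed, the interval of the fold was 0.75 to 2.67. Without WT 2, the gap was smaller and the spread smaller still, and edgeR's quasi-likelihood test then called it (log2 difference 0.35 ± 0.07, adjusted p = 0.00744). DESeq2 on all 10 libraries gave an adjusted p of 0.0422.

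WT 2 also stood apart for transcripts rich in G and C, to which Notch3 belongs. The Notch3 transcript is 59.6% G and C, in the uppermost decile of tested genes, and Notch3 lay 1.09 log2 units lower in WT 2 than in the mean of the other WT libraries. Over all genes of that decile the median for WT 2 was -0.44, while in the lowest decile it was 0.06. For WT 3, the highest WT library for Notch3, these medians were 0.25 and -0.06. Among the other members, WT 2 differed by -0.59 for Notch4 (61.2% G and C), -0.56 for Notch1 (57.1%) and -0.65 for Dll4 (55.9%). It differed by -0.11 for Heyl (55.2%), 0.02 for Notch2 (53.6%) and 0.13 for Hey1 (52.6%). Values were -0.62 for Hes1 (50.7%), 0.02 for Jag1 (48.8%) and 0.18 for Hey2 (45.9%). The median KO minus WT difference in the uppermost decile was -0.03. This look at base composition was chosen after the Notch3 values were seen, and its part in the Notch3 difference was not tested.

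The sum of markers of pericytes, the other mural cells that carry Notch3, was higher in KO libraries, chiefly through 1 gene. The 6 markers summed to 5295 to 5402 CPM in KO libraries and to 2571 to 4509 CPM in WT libraries, with WT 2 lowest. Of the 6, 1 passed the 5 against 5 test, which 14.3% of all tested genes passed. It made up most of the sum in every library. That gene was Rgs5, a regulator of G-protein signalling, with 4436 ± 42.6 CPM in KO and 2602 ± 829 CPM in WT (SD, n = 5 each). Cspg4, which encodes a mural-cell proteoglycan, had 485 ± 10.3 CPM in KO and 479 ± 122 CPM in WT, so the list did not move as one. The part of pericytes in the Notch3 result was not tested.

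Notch2 was the most abundant receptor and differed little. It had 152, 157, 157, 158 and 156 CPM in KO 1 to KO 5, against 134, 148, 157, 149 and 145 CPM in WT 1 to WT 5. WT 3 reached the KO values and WT 1 lay below the rest, so the groups overlapped. The log2 difference was 0.09 ± 0.05 (adjusted p = 0.242, edgeR quasi-likelihood test), and 95% intervals of the fold ran over 0.99 to 1.15 (5 against 5) and 0.87 to 1.30 (KO summed).

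Notch1, the receptor that keeps arterial endothelium quiescent, had 6.38, 6.43, 6.63, 5.85 and 6.47 CPM in KO 1 to KO 5, against 5.30, 4.96, 4.29, 15.2 and 9.29 CPM in WT 1 to WT 5. All 5 KO libraries lay between the lower 3 and the upper 2 WT libraries. Notch1 differed by -0.30 ± 0.31 on the log2 scale (adjusted p = 0.565, edgeR quasi-likelihood test), and by 0.09 without WT 4, so 1 library set its sign. With KO summed, the interval of the fold was 0.27 to 2.46.

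Notch4, a receptor largely restricted to endothelium, had 2.55, 2.71, 2.21, 3.33 and 2.33 CPM in KO 1 to KO 5, against 3.22, 2.48, 1.996, 7.25 and 5.11 CPM in WT 1 to WT 5. Once more WT 4 and WT 5 were the highest libraries, and the other 3 WT libraries lay within or just below the KO range. Its log2 difference was -0.61 ± 0.32 (adjusted p = 0.221, edgeR quasi-likelihood test), and the fold with KO summed had an interval of 0.22 to 1.96. Without WT 4 the log2 difference was -0.28. These values rest on 59 to 91 counts per KO library and 40 to 176 counts per WT library.

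The ligands behaved differently from each other. Jag1, through which smooth muscle and endothelial cells signal to their neighbours, was among the most even of the genes. It had 47.3, 49.9, 48.1, 48.9 and 47.9 CPM in KO 1 to KO 5, against 46.7, 49.95, 46.1, 54.5 and 49.7 CPM in WT 1 to WT 5. Apart from WT 4, every library lay within 46.1 to 49.95 CPM. The log2 difference was -0.03 ± 0.05 (adjusted p = 0.747, edgeR quasi-likelihood test), with library totals in place of TMM factors it was 0.04, and the fold lay between 0.91 and 1.06 (5 against 5) or 0.80 and 1.20 (KO summed).

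Dll4, the Delta ligand of arterial and sprouting endothelium, varied most. It had 2.35, 2.11, 1.80, 1.46 and 1.59 CPM in KO 1 to KO 5, against 2.40, 1.67, 0.90, 6.34 and 4.27 CPM in WT 1 to WT 5. The KO libraries lay inside the WT range, which spanned 7.06-fold. At 40 to 59 counts per KO library and 18 to 154 per WT library, the log2 difference was -0.75 ± 0.43 (adjusted p = 0.275, edgeR quasi-likelihood test), and -0.31 without WT 4. With KO summed, the interval of the fold was 0.13 to 2.69, so folds anywhere between those bounds remain possible.

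Of the target genes, Heyl, a Hey-family repressor known downstream of Notch3 in mural cells, was the most abundant. It had 219, 217, 218, 225 and 221 CPM in KO 1 to KO 5, against 206, 175, 261, 141 and 166 CPM in WT 1 to WT 5. WT 3 was the highest of all libraries and the other 4 WT libraries lay below every KO library. For Heyl the log2 difference was 0.21 ± 0.13 (adjusted p = 0.319, edgeR quasi-likelihood test, interval of the fold 0.95 to 1.42), and 0.72 to 1.87 was the interval with KO summed. Without WT 3 it was 0.36 ± 0.09 and passed the 5 against 5 test (adjusted p = 0.0206, edgeR quasi-likelihood test), and without WT 4 it was 0.13 ± 0.11 (adjusted p = 0.4999, same test).

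Hey2, which carries the RBPJ letters printed above and restrains smooth muscle genes, had 80.6, 80.2, 84.4, 83.5 and 82.2 CPM in KO 1 to KO 5, against 70.3, 86.1, 82.9, 74.1 and 77.5 CPM in WT 1 to WT 5. WT 2 lay above and WT 1, WT 4 and WT 5 below all KO libraries. Its log2 difference was 0.07 ± 0.06 (adjusted p = 0.437, edgeR quasi-likelihood test), with an interval of the fold of 0.84 to 1.31 when KO was summed.

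Hes1, the Hes-family repressor that many cell types use, had 18.9, 16.3, 17.2, 17.9 and 16.5 CPM in KO 1 to KO 5, against 20.7, 13.4, 24.7, 20.3 and 18.1 CPM in WT 1 to WT 5. The KO libraries fell inside the WT range, whose lowest was WT 2. The log2 difference was -0.16 ± 0.13 (adjusted p = 0.452, edgeR quasi-likelihood test), and 0.03 without WT 1 and WT 3, the libraries with the highest mitochondrial shares. Hes1 is also induced quickly by signals other than Notch, and their part in its values was not tested. Of 15 immediate early genes, 1 was higher and 3 were lower in KO under the 5 against 5 test. That test called 6.84% of all tested genes higher and 7.43% lower. Sums of the list were 809 to 841 CPM in KO and 879 to 1111 CPM in WT. Among WT libraries, WT 3 was highest for Hes1 and lowest for this sum.

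Hey1, a Hey-family repressor known from arterial endothelium, had 6.22, 4.66, 6.03, 5.63 and 5.84 CPM in KO 1 to KO 5, against 6.66, 6.76, 5.94, 5.76 and 6.22 CPM in WT 1 to WT 5. KO 2 and KO 4 lay below every WT library, and the other 3 KO libraries lay among the WT libraries. Its log2 difference was -0.14 ± 0.10 (adjusted p = 0.392, edgeR quasi-likelihood test), and with KO summed the interval of the fold was 0.64 to 1.27.

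**Figure D3:**
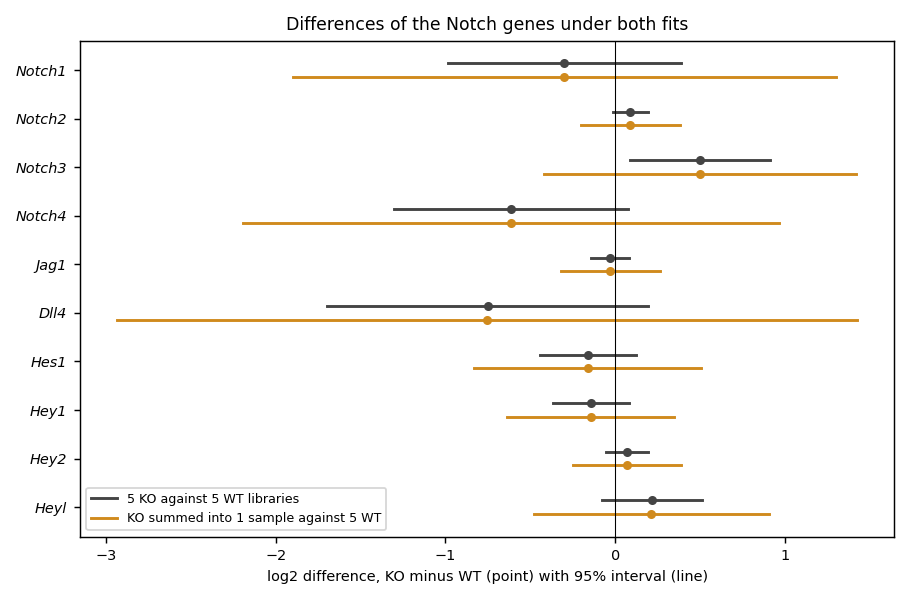
Log2 difference (KO minus WT, points) with its 95% interval (lines) for each Notch gene, in dark grey for 5 KO against 5 WT libraries and in orange for the KO counts summed into 1 sample. Only the dark line of Notch3 leaves out 0 (fold 1.06 to 1.88), and every orange line crosses it, the longest being that of Dll4 (0.13 to 2.69).

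Of the members known from endothelium, Notch1, Notch4 and Dll4 moved together among the WT libraries, and Hey1 and Jag1 did not share their order. Notch1, Notch4 and Dll4 had the same order there, WT 4, WT 5, WT 1, WT 2, WT 3 from high to low, which 293 of 15710 tested genes (1.87%) shared. The order of Hey1 was WT 2, WT 1, WT 5, WT 3, WT 4. That of Jag1, also known from smooth muscle, was WT 4, WT 2, WT 5, WT 1, WT 3. The 15 endothelial markers summed to 516 to 533 CPM in KO libraries, and to 421, 769, 351, 1008 and 843 CPM in WT 1 to WT 5. The exact order of the 3 Notch genes was found in 1 of the 15 markers. WT 4 and WT 5 were the highest libraries for 11 of the 15, against 17.7% of all tested genes, and 0 of the 15 passed the 5 against 5 test. Pecam1, an endothelial adhesion molecule, had 158 ± 2.13 CPM in KO and 269 ± 135 CPM in WT, and Erg, an endothelial ETS factor, 91.9 ± 3.05 CPM in KO and 83.2 ± 22.5 CPM in WT (SD, n = 5 each).

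Set against the mean log2 level of these markers in the same library, the 3 genes were far more even. Their SD over the WT libraries, in log2 units, was 0.28 for Notch1, 0.29 for Notch4 and 0.45 for Dll4, and without the markers it was 0.76, 0.76 and 1.11. For Hey1 the same step widened the SD to 0.84, against 0.10 without it, and for Notch3 to 0.95, against 0.51. It widened that of Jag1 to 0.72, against 0.10. On the relative scale KO minus WT was -0.06 for Notch1, -0.40 for Notch4 and -0.38 for Dll4, and without the markers the mean log2 levels differed by -0.12, -0.46 and -0.45, with no test made of either. In whole tissue, fewer cells of a type and less RNA per cell cannot be told apart.

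Adipocyte markers followed the same WT libraries. The 7 of them summed to 717 to 748 CPM in KO libraries, and to 571, 766, 385, 2230 and 1663 CPM in WT 1 to WT 5, and 0 of 7 passed the 5 against 5 test. Fabp4, a fatty-acid carrier of fat cells that capillary endothelium also makes, had 470 ± 10.1 CPM in KO and 741 ± 458 CPM in WT. Ucp1, which marks brown fat, had 94.8 ± 3.40 CPM in KO and 171 ± 179 CPM in WT (SD, n = 5 each). The sum of 15 immediate early genes, which respond to handling and other stimuli, had the same WT order as Notch1, Notch4 and Dll4. The parts of fat around the vessel and of handling in the endothelial pattern were not tested.

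Heyl had another order among the WT libraries, which Hey2 and Notch3 did not share. The WT order of Heyl, WT 3, WT 1, WT 2, WT 5, WT 4 from high to low, was that of the sum of 14 smooth muscle markers. How many of all tested genes share this order was not counted. The marker sum was 50255 to 51032 CPM in KO libraries, and 55112, 46038, 56067, 37814 and 41680 CPM in WT 1 to WT 5. Relative to the mean log2 level of those markers, the SD of Heyl over WT was 0.21, against 0.34 without them. The same step widened the SD of Hey2 from 0.12 to 0.18 and that of Notch2 from 0.09 to 0.16. It narrowed that of Hes1 from 0.33 to 0.28 and hardly changed that of Notch3 (0.51 to 0.50). Under the 5 against 5 test 2 of the 14 were higher and 1 lower in KO. Of all tested genes, 6.84% were higher and 7.43% lower. Acta2, smooth muscle actin, had 22658 ± 223 CPM in KO and 19869 ± 4726 CPM in WT, and Myh11, smooth muscle myosin, 9077 ± 38.4 CPM in KO and 8642 ± 1067 CPM in WT (SD, n = 5 each), so the libraries carried the defining genes of an arterial wall. Tagln, another marker, had only 21.7 CPM in KO and 25.8 CPM in WT, and 67.9% of its exon bases are shared with other annotated genes.

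**Figure D4:**
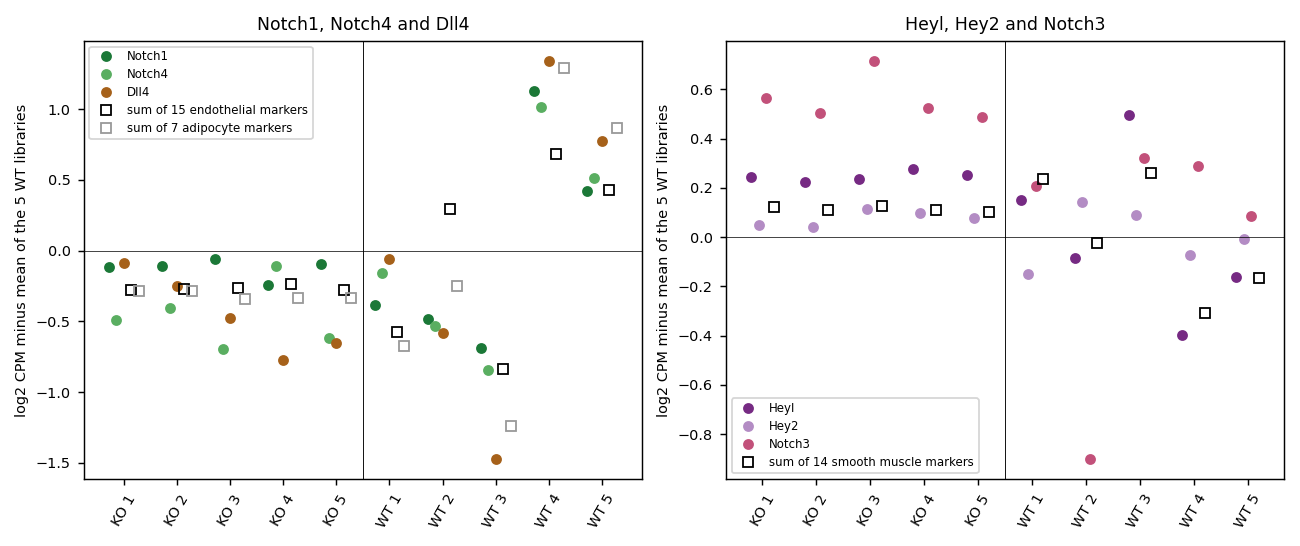
Log2 CPM minus the mean of the 5 WT libraries, by library with KO to the left, for Notch1, Notch4 and Dll4 beside endothelial and adipocyte marker sums (left panel) and for Heyl, Hey2 and Notch3 beside the smooth muscle sum (right panel). WT 4 and WT 5 are high in the left panel, Heyl and the smooth muscle sum are highest in WT 3 and lowest in WT 4, and Notch3 is lowest in WT 2.

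Markers of the remaining cell types differed between the groups in part, and their part in the Notch values was not tested. Of 12 fibroblast markers 7 were higher in KO (sums of 4390 to 4474 CPM in KO and 3582 to 3792 CPM in WT), among them Dcn at 1528 ± 18.9 CPM in KO and 1188 ± 133 CPM in WT. Of 8 tested lymphocyte markers 5 were higher (280 to 285 CPM in KO, 11.8 to 29.9 CPM in WT), led by Ighm at 157 ± 1.45 CPM in KO and 9.35 ± 3.29 CPM in WT. Macrophage markers were higher for 2 of 8 (322 to 334 CPM in KO, 228 to 385 CPM in WT), and Schwann and nerve markers for 4 of 8 (162 to 174 CPM in KO, 116 to 180 CPM in WT). All 5 red cell markers were lower in KO (19.2 to 21.3 CPM in KO, 65.7 to 327 CPM in WT). These counts are from the 5 against 5 fit, which called 6.84% of all tested genes higher and 7.43% lower in KO. Ms4a1 was the only marker without a count in some library.

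Most of the machinery around the 10 genes showed no called difference. Of 54 other pathway genes, 48 had enough counts, and 8 of these 48 (16.7%, against 14.3% of all genes) passed the 5 against 5 test, 5 higher and 3 lower in KO. With the KO counts summed 0 of 48 passed edgeR's test, DESeq2 also called 0, and 2 had an unadjusted p below 0.05. The median log2 difference over the 48 was -0.04. The ligands Dll3, Dlk1 and Dlk2, the inhibitor Nrarp and the targets Hes5 and Hes7 were not tested, with at most 11 counts in any library.

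Enzymes that attach sugars to Notch receptors in the secretory pathway gave 2 of 5 calls, both higher. Across all tested genes 6.84% were called higher in KO. Pofut1, the O-fucosyltransferase, had 57.8 ± 1.98 CPM in KO and 46.3 ± 3.87 CPM in WT, a log2 difference of 0.32 ± 0.06 (SE; adjusted p = 0.00569, edgeR quasi-likelihood test). Poglut1, the O-glucosyltransferase, had 76.6 ± 1.70 CPM in KO and 69.0 ± 2.93 CPM in WT, with a log2 difference of 0.15 ± 0.04 (adjusted p = 0.0367, edgeR quasi-likelihood test). The Pofut1 ranges lay apart, at 56.1 to 61.2 CPM in KO and 40.3 to 49.8 CPM in WT. The call of Poglut1 was lost without any 1 of the KO libraries and without WT 3, WT 4 or WT 5, with adjusted p of 0.0502 to 0.0908 in the same test.

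None of the 10 cleavage genes was called. Adam10, the protease of the first cut, had 53.4 ± 2.06 CPM in KO and 51.0 ± 5.81 CPM in WT (log2 difference 0.07 ± 0.07, adjusted p = 0.597, edgeR quasi-likelihood test). Among 2 tested ligands, 4 genes of ligand uptake and 4 inhibitors there was likewise no call in the 5 against 5 edgeR test, while limma-voom called Jag2, Dll1 and Neurl1b (named after their values were seen).

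In the nucleus, Rbpj, the pathway's DNA-binding protein, had 82.4 ± 2.52 CPM in KO and 87.4 ± 12.7 CPM in WT (log2 difference -0.08 ± 0.09, adjusted p = 0.563, edgeR quasi-likelihood test). Of 9 nuclear activators, 1 was called higher and 1 lower in KO by the 5 against 5 test. That test called 14.3% of all tested genes. Snw1, a splicing factor that binds the Notch complex, had 35.0 ± 1.03 CPM in KO and 27.4 ± 3.91 CPM in WT. Its log2 difference was 0.35 ± 0.09 (adjusted p = 0.0214, edgeR quasi-likelihood test). Crebbp, a histone acetyltransferase recruited to target genes, had 59.3 ± 1.49 CPM in KO and 72.9 ± 4.02 CPM in WT. Its log2 difference was -0.30 ± 0.05 (adjusted p = 0.00247, edgeR quasi-likelihood test). Both genes serve many other transcription units.

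Of 8 co-repressors, 3 were called, 1 higher and 2 lower in KO, where 14.3% of all tested genes were called. Tle1, a Groucho-type partner of Hes proteins, had 51.0 ± 2.29 CPM in KO and 65.0 ± 6.87 CPM in WT (log2 difference -0.35 ± 0.07, adjusted p = 0.00770, edgeR quasi-likelihood test). Hdac1, a histone deacetylase of many complexes, had 96.0 ± 2.80 CPM in KO and 84.9 ± 6.06 CPM in WT (log2 difference 0.18 ± 0.05, adjusted p = 0.0466, edgeR quasi-likelihood test). Among 6 further targets, Efnb2, the arterial ephrin ligand, was the only one called, with 48.3 ± 1.83 CPM in KO and 41.6 ± 3.11 CPM in WT (log2 difference 0.21 ± 0.06, adjusted p = 0.0288, edgeR quasi-likelihood test).

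The number of calls depended on which libraries were counted. Without 1 KO library at a time 3 to 5 of the 48 were called, where 8.1% to 8.79% of all tested genes were, and without WT 2 there were 13, where 16.8% of all tested genes were called. Pofut1 and Crebbp were the only genes called under each of the 17 alternatives to the 5 against 5 fit. Efnb2 was lost without KO 1, KO 2, KO 4 or KO 5, Hdac1 without any 1 of the KO libraries or WT 3, WT 4 or WT 5, and Snw1 without KO 1, KO 3 or KO 5, with adjusted p of 0.0542 to 0.115 in edgeR's quasi-likelihood test.

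**Figure D5:**
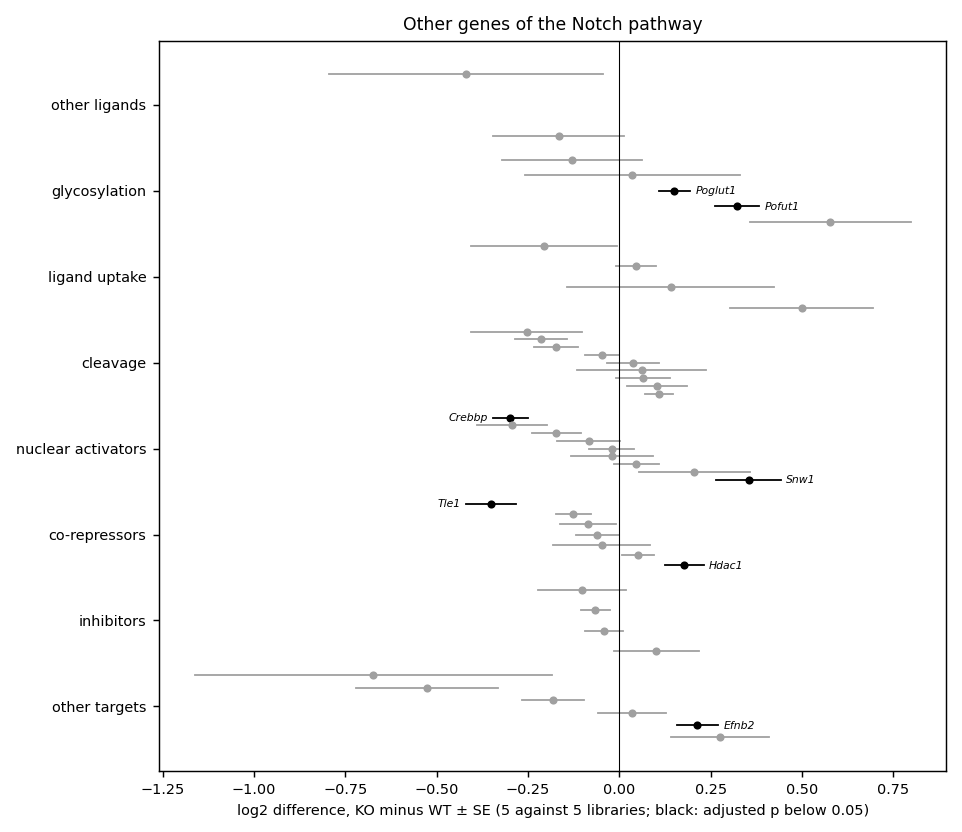
Log2 difference (KO minus WT) ± SE of 46 other Notch pathway genes in 8 classes, from 5 KO against 5 WT libraries, with genes past the threshold in black and named. The 7 black points lie between -0.35 (Tle1) and 0.35 (Snw1), and the cleavage genes and inhibitors lie around 0 in grey.

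Genes with the profile closest to Notch3 over 6 samples (KO summed and 5 WT) included Emilin1 and Chd5, by the root mean square difference of centred log2 CPM, at 0.06 and 0.08, where the median over tested genes was 0.49. Emilin1, an elastic fibre glycoprotein, had 154 CPM in KO and 131, 61.8, 150, 137 and 115 CPM in WT 1 to WT 5. Both share the low value of WT 2, which follows from picking them by likeness over these same samples. Their transcripts are 61.1% and 57.4% G and C, and the part of base composition in this likeness was not tested. For Dll4 the closest were Gpihbp1, Dll1 and Adig, at 0.08, 0.13 and 0.15, with a median over genes of 0.77. Gpihbp1, which carries lipoprotein lipase across capillary endothelium, had 11.8 CPM in KO and 13.1, 8.82, 6.18, 30.6 and 21.1 CPM in WT 1 to WT 5, with WT 4 and WT 5 high as for Dll4. Adig is known from fat cells, and Dll1 is another Delta ligand.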

How the data were processed

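RNA from whole aorta was sequenced in 10 libraries, with groups taken from the titles. Tissue was frozen, RNA was taken up in Trizol, and libraries were made with a TruSeq RNA kit, per the labels' protocols. What the authors deposited are raw read counts for each gene. The submitters' processing notes give mm8 and mm9 as builds and Bowtie 0.12.2 as a tool, without a role. For the counting tool, the annotation and the use of strand, the answer is: not given in the sources used here. Ensembl identifiers were matched to GENCODE M21 (GRCm38) for 35519 of 35667 genes, which gave exon lengths, and RefSeq (GRCm38.p6) gave promoter windows. Base composition was available for 99.8% of tested genes.

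Counts were tested with the quasi-likelihood test of edgeR 4.0.16 (R 4.3.3) with TMM factors and filterByExpr (minimum count 10, minimum total 15), with Benjamini-Hochberg adjustment and calls at 0.05. Each adjusted p printed is from this test unless another is named. The SE is the log2 difference over the root of F. The fit with KO summed used the same 15710 genes and assumes that KO would vary as WT does. Both fits were tested on simulated data. No covariate was used, and same-numbered libraries were not paired (correlations of deviations -0.04 to 0.05).

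The members and all lists were chosen with earlier results of these data known. Named genes are the 10 members, Ovgp1, Rbpj, Adam10, pathway genes past the threshold, markers from the 2 most abundant per list and the 3 genes nearest to Notch3 and Dll4. Some genes that this rule names are not reported here. Tagln, Ms4a1, the untested pathway genes and the 1 called pericyte marker were named after their values were seen. The 9 lists of cell markers (endothelial, smooth muscle, fibroblast, pericyte, macrophage, lymphocyte, adipocyte, Schwann and nerve, red cell) and 1 of immediate early genes were read from the same fit. The chi-square used genes whose mean reached 50 counts. Alternatives were other scalings, no filter, DESeq2 1.42.0, limma-voom (limma 3.58.1), a replicate block and leaving out libraries. SDs and intervals of KO values cover little beyond counting error.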

Additional observations from a re-analysis of the deposited data

Results flagged for a closer look

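Single libraries stood apart from the other 4 of their group in 5 of the 56 groups of 5 values examined (28 quantities in 2 groups), where chance gives about 1 in 20. Notch3 in WT 2 was at 10.05 CPM, against 19.92 to 23.45 CPM in the other WT libraries. Pofut1 in KO 1 was at 61.23 CPM, against 56.11 to 57.49 CPM in the other KO libraries. Poglut1 in KO 5 was at 73.64 CPM, against 76.73 to 77.83 CPM in the other KO libraries. The sum of Schwann and nerve markers in KO 4 was 174.3 CPM, against 161.6 to 165.0 CPM in the other KO libraries. The sum of fibroblast markers in WT 2 was 3792 CPM, against 3582 to 3631 CPM in the other WT libraries.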

How the results depend on the processing

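With 5 against 5 libraries, the count of Notch genes called, 0 in edgeR's quasi-likelihood test, was 1 with DESeq2 (Notch3; 18.9% of all genes called, against 14.3% in edgeR's test), 6 with limma-voom (Notch3, Notch2 and Heyl higher, Notch1, Notch4 and Dll4 lower; 41.2% of all genes), 3 without WT 1 and WT 3 (Heyl higher at adjusted p = 0.00035, Dll4 and Notch4 lower at 0.0436 and 0.0440 in edgeR's test; 27.2% of all genes), and 0 to 1 when 1 library was left out: 1 without WT 2 (Notch3) and 1 without WT 3 (Heyl). It was 0 with the replicate block, other size factors, library totals or no filter. Of 170 single values over the 17 alternatives, 153 kept direction and side of the threshold, 12 passed it, and 5 that were not called changed sign: Notch1 and Hes1 as given above, and Jag1 with library totals, without a filter (0.02) and without WT 4 (0.01). The count of other pathway genes, 8, was 12 with DESeq2, 21 with limma-voom, 4 with the replicate block (8.4% of all genes), 16 without WT 1 and WT 3, and 3 to 13 when 1 library was left out. Snw1, Efnb2, Poglut1 and Hdac1 were lost under the block, and the other 4 calls held. Tle1 was lost with library totals (adjusted p = 0.0533, edgeR). Replicate numbers share only a number in these labels. With KO summed, both counts stayed 0 under all 10 alternatives. The median log2 difference of all genes was -0.02 with TMM and 0.05 with library totals. Dll4 and Notch4 had the lowest counts of the members. The cause of these changes was not tested.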
